A study of Mus musculus with 9 samples.

Results

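The interleukin-1 (IL-1) family is described here by 10 genes, taken by symbol from a fixed list, of the 56923 genes in the count table. The ligands are Il1f6 (also written Il36a), Il1b, Il18 and Il33, the receptor chains are Il1r1, Il1rap, Il1r2 and Il1rl1, and the soluble inhibitors are Il1rn and Il18bp. All 10 were found. Kidney RNA of wild-type mice made up 9 sequencing libraries, with 3 groups of 3. Sham mice had the operation with no ischemia-reperfusion injury, and the labels give PBS as their treatment. AKI_PBS mice had acute kidney injury and were given PBS, and AKI_PTPi_mEVs mice had acute kidney injury and were given milk-derived extracellular vesicles loaded with siRNA against PTP1B, the phosphatase that Ptpn1 encodes. The title of AKI_PTPi_mEVs replicate 2 spells the vesicles PTP@mEVs, whereas its treatment label has PTPi@mEVs as in the other two. The labels give no strain, sex, age, time after injury or batch, and no injured group with unloaded vesicles or another siRNA is among them, so effects of vesicle and siRNA cannot be told apart.

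IL-1 family ligands are alarm signals of damaged or activated cells. IL-1β signals through IL-1R1 paired with the shared accessory chain IL-1RAP. IL-1RA, the product of Il1rn, occupies IL-1R1 without signalling, and IL-1R2 binds IL-1 as a decoy with no signalling domain. IL-36α, the product of Il1f6, is an epithelial ligand that uses its own receptor, Il1rl2, with the same accessory chain. IL-18 is held in check by IL-18BP, and IL-33, a nuclear alarmin, uses ST2, the product of Il1rl1. IL-1β and IL-18 are cut to their active forms by inflammasome caspases, so their RNA levels do not give the amount of active cytokine.

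Libraries held 9467851 to 11389479 counts, and 17036 genes passed the low-count filter. All 8 kidney tissue markers (among them Umod, Lrp2, Aqp2 and Nphs1) were detected in every group. AKI_PBS replicate 3 stood apart from the other AKI_PBS libraries on the third principal component, which held 6.27% of the variance (-44.1 against 28.3 and 20.6). Ptpn1 lay at 80.9 to 98.8 CPM in sham, 123 to 170 CPM in AKI_PBS and 94.0 to 106 CPM in AKI_PTPi_mEVs, with less Ptpn1 in AKI_PTPi_mEVs than in AKI_PBS (-0.53 ± 0.15 on the log2 scale, edgeR adjusted p = 0.00862). CPM are counts brought to a common library size, using TMM factors. A log2 fold change is given with its standard error (SE), n is 3 libraries per group throughout, and a gene is called where the Benjamini-Hochberg adjusted p of edgeR's quasi-likelihood test is under 0.05. The labels do not tie libraries to animals, and p-values therefore cover only the spread between these libraries, which may be technical. In whole kidney RNA, fewer cells of a type and less RNA per cell cannot be told apart.

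In outline, injury with PBS went with higher RNA of the IL-1 receptor, its decoy, its antagonist and the IL-36α ligand. In vesicle-treated injured kidneys the receptor and the decoy were lower than in AKI_PBS and overlapped sham, while the antagonist and IL-36α were higher than in sham. Of the 10 genes 8 passed the filter. In AKI_PBS against sham 4 were called, all of them higher, beside 55.7% of all genes called in either direction (27.8% higher, 27.9% lower). In AKI_PTPi_mEVs against AKI_PBS 1 was called higher and 2 lower, beside 51.1% of all genes (25.4% higher, 25.8% lower). In AKI_PTPi_mEVs against sham 2 were higher and 1 lower, beside 13.2% of all genes (7.43% higher, 5.79% lower), and without AKI_PTPi_mEVs replicate 2 the count was 1. Il1f6 and Il1r2 reached the filter through their AKI_PBS counts alone. That fixed their direction against AKI_PBS. Il1f6 had 0 counts in sham and Il1rn reached the filter through the injured groups alone, which fixed their direction against sham. The counts are a description. Libraries of the groups compared did not overlap for 6 of all 10 genes in AKI_PBS against sham, 5 of them above (62.1% of all genes, 31.2% above), for 4 in AKI_PTPi_mEVs against AKI_PBS, 1 of them above (57.9% of all genes), and for 3 in AKI_PTPi_mEVs against sham, 1 of them below (39.2% of all genes, 18.1% below, 21.2% above). The comparisons share their AKI_PBS or sham libraries and are not independent of each other.

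Il1f6 encodes IL-36α. It had 0 counts in all 3 sham libraries, 71, 153 and 31 counts in AKI_PBS and 10, 48 and 60 counts in AKI_PTPi_mEVs. Every injured library therefore held more than every sham library, and the injured groups overlapped each other. With the sham group set to a floor of 3 counts in all, Il1f6 was at least 75.8-fold higher in AKI_PBS (edgeR adjusted p = 0.00112) and at least 41.6-fold higher in AKI_PTPi_mEVs (edgeR adjusted p = 0.0149). The second call was lost without AKI_PTPi_mEVs replicate 2 (edgeR adjusted p = 0.0521). Il1f6 passed the filter through its AKI_PBS counts alone, which fixed the direction of the first call. With sham at 0 counts, the second call could only be higher as well. The means of the injured groups, with SD, were 7.33 ± 5.29 CPM for AKI_PBS and 4.25 ± 2.97 CPM for AKI_PTPi_mEVs. That difference did not pass (log2 fold change -0.81 ± 0.68, 95% interval -2.34 to 0.73, edgeR adjusted p = 0.347). Leaving out AKI_PBS replicate 2 gave -0.08, and leaving out AKI_PTPi_mEVs replicate 3 gave -1.27.

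Il1b encodes IL-1β. It did not pass the filter. It had 5, 8 and 3 counts in sham, 9, 35 and 23 in AKI_PBS and 5, 8 and 6 in AKI_PTPi_mEVs. All AKI_PBS libraries lay above all sham libraries, and the lowest AKI_PBS library, replicate 1, was within 1 count of the highest vesicle-treated library. Mean levels with SD were 0.513 ± 0.221 CPM for sham, 1.94 ± 1.12 CPM for AKI_PBS and 0.664 ± 0.207 CPM for AKI_PTPi_mEVs. Exact two-sided permutation tests gave p = 0.1 for AKI_PBS against sham (adjusted 0.343 over the 24 tests of family genes below the filter), p = 0.2 (adjusted 0.533) between the injured groups and p = 0.5 (adjusted 0.80) for AKI_PTPi_mEVs against sham. With 3 libraries against 3 the smallest p these tests allow is 0.1. Fitted with no low-count filter, Il1b was called in AKI_PBS against sham (1.84 ± 0.50 on the log2 scale, edgeR adjusted p = 0.00111) and in AKI_PTPi_mEVs against AKI_PBS (-1.5 ± 0.48, edgeR adjusted p = 0.0094), but not in AKI_PTPi_mEVs against sham (0.34 ± 0.58).

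The RefSeq window around the Il1b start site, from 250 bases before it to 50 after it, is shown because IL-1β is a ligand of the receptor and the decoy described next (GRCm38.p6, chr2:129371090-129371389, minus strand). It is printed 5′ to 3′, and the capitals mark matches to TTNNNCAA, a C/EBP-type motif, read on both strands. They begin 91 and 6 bases before the start site.
Il1b: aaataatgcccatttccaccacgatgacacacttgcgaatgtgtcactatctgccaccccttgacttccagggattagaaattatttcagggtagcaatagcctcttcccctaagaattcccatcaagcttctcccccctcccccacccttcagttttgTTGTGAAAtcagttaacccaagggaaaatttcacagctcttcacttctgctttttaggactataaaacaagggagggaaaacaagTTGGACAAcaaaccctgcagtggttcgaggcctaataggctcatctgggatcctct
Neither the NF-kB-type motif, which is GGG, any 5 bases and CC on either strand, nor the AP-1-type motif TGANTCA was in this window. Of all 32851 RefSeq windows of 300 bases, 36.7% hold the C/EBP-type motif, 50.8% the NF-kB-type motif and 7.81% the AP-1-type motif. A match is a description of letters and not a binding site.

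Il18 encodes IL-18, a cytokine that kidney tubular epithelium makes without injury. Its CPM were 3.33, 4.46 and 6.10 in sham, 4.41, 3.77 and 1.68 in AKI_PBS, and 1.19, 2.07 and 1.87 in AKI_PTPi_mEVs. The vesicle-treated libraries all lay below the sham libraries, and AKI_PBS overlapped both other groups, with replicate 3 the low library of its group. Il18 was lower in AKI_PTPi_mEVs than in sham (log2 fold change -1.44 ± 0.39, edgeR adjusted p = 0.0295). That call was lost on leaving out sham replicate 2 (-1.46) or 3 (-1.19), or AKI_PTPi_mEVs replicate 1 (-1.22), 2 (-1.62) or 3 (-1.5). Between the injured groups the difference was -0.95 ± 0.40 (edgeR adjusted p = 0.0613). It passed without AKI_PBS replicate 3 (-1.26, edgeR adjusted p = 0.00904), when scaled by library totals (-1.07, edgeR adjusted p = 0.0406) and with no low-count filter (-0.91, edgeR adjusted p = 0.0466). AKI_PBS against sham gave -0.49 ± 0.36 (edgeR adjusted p = 0.264).

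Il33 encodes IL-33, which endothelial and stromal cells store in the nucleus. It had 122, 87 and 44 counts in sham, 103, 115 and 83 in AKI_PBS, and 112, 71 and 47 in AKI_PTPi_mEVs. The spread within sham covered both other groups. No comparison passed edgeR's test: AKI_PBS against sham gave a log2 fold change of 0.09 ± 0.33 (95% interval -0.62 to 0.80, adjusted p = 0.834), and AKI_PTPi_mEVs against AKI_PBS gave -0.16 ± 0.33 (adjusted p = 0.699). A change of Il33 within these intervals was not detectable.

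**Figure D1:**
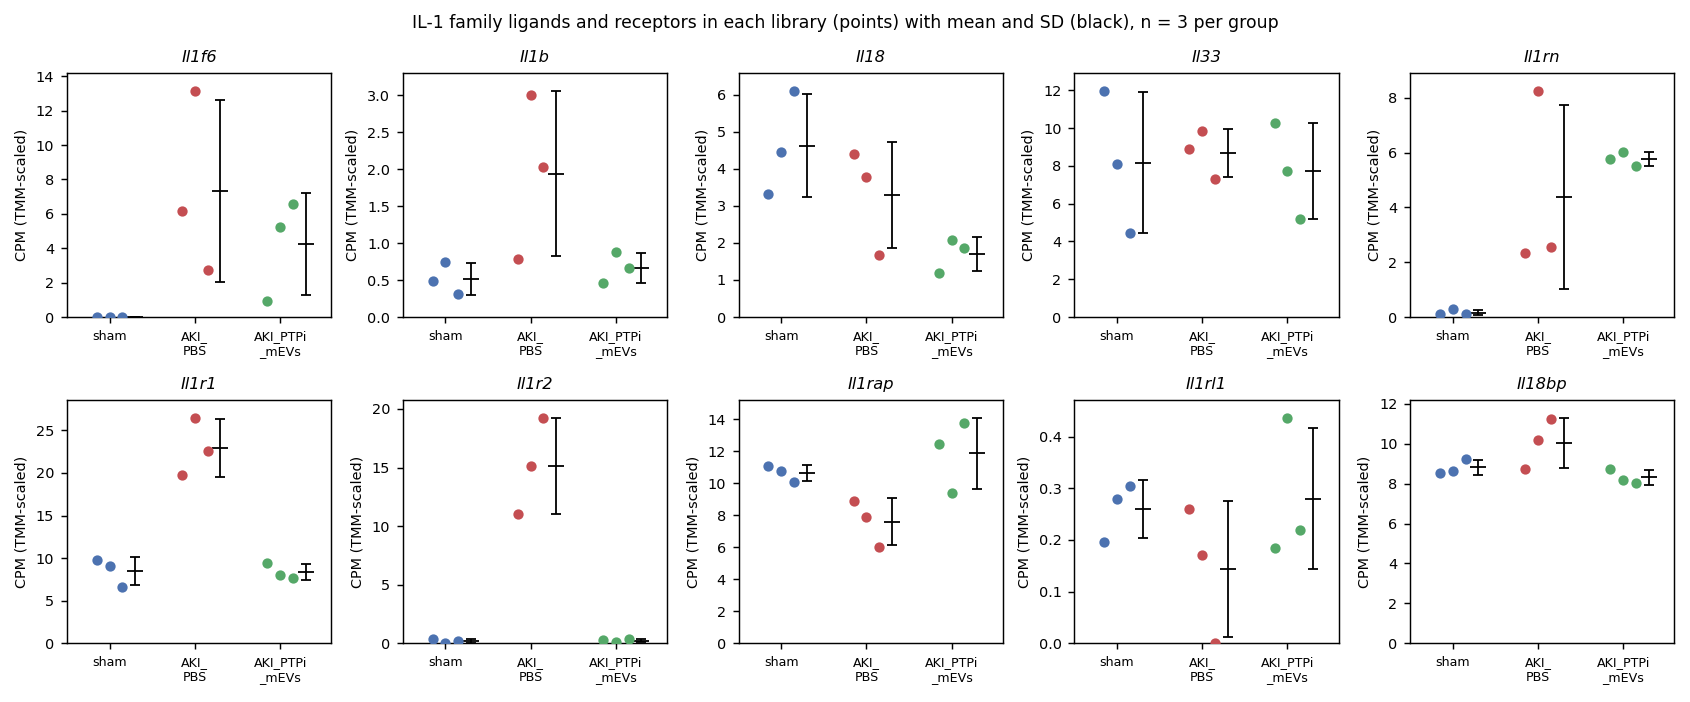
Values of the 10 IL-1 family genes in each library, in CPM on a linear axis that starts at 0, by group; coloured points are libraries, and black marks are the mean and SD of 3 libraries, with the lower bar ended at 0. Il1r1 and Il1r2 are high in the 3 AKI_PBS libraries alone, Il1rn and Il1f6 are above sham in both injured groups, and Il33 and Il18bp overlap or nearly overlap across groups.

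Il1r1 encodes the signalling receptor for IL-1. Its CPM were 9.80, 9.11 and 6.60 in sham, 19.8, 26.5 and 22.5 in AKI_PBS, and 9.45, 7.97 and 7.69 in AKI_PTPi_mEVs. The AKI_PBS libraries stood above the other 6, which overlapped each other. Il1r1 rose in AKI_PBS by 1.43 ± 0.20 on the log2 scale (edgeR adjusted p = 7.63e-05), and AKI_PTPi_mEVs lay below AKI_PBS by as much (-1.45 ± 0.20, edgeR adjusted p = 9.67e-05). AKI_PTPi_mEVs against sham gave -0.02 ± 0.21, with a 95% interval of -0.47 to 0.43 (edgeR adjusted p = 0.963).

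Il1r2 encodes the decoy receptor, which in mouse is also strongly expressed by neutrophils. It had 4, 0 and 2 counts in sham, 128, 176 and 218 in AKI_PBS and 3, 1 and 3 in AKI_PTPi_mEVs. The AKI_PBS libraries held 11.1, 15.1 and 19.3 CPM, and no library of another group exceeded 0.392 CPM. Il1r2 rose in AKI_PBS by 6.19 ± 0.49 on the log2 scale (edgeR adjusted p = 1.01e-06). In AKI_PTPi_mEVs its mean was 1.57% of the AKI_PBS mean (-5.91 ± 0.48, edgeR adjusted p = 2.28e-06). Il1r2 passed the filter through its AKI_PBS counts alone. That fixed its direction in both comparisons with AKI_PBS, so their p-values are a description. The rise was 7.10 without sham replicate 1 and 5.59 without sham replicate 2, since sham held so few counts. AKI_PTPi_mEVs against sham gave 0.28 ± 0.85 (95% interval -1.54 to 2.11, edgeR adjusted p = 0.865), an interval too wide at 6 and 7 counts per group to show likeness.

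The sum of neutrophil markers, like Il1r2, was highest in AKI_PBS, but not every marker moved this way. The summed level of 12 neutrophil markers ranged from 1.12 to 2.25 CPM in sham, from 14.3 to 29.2 CPM in AKI_PBS and from 2.02 to 2.86 CPM in AKI_PTPi_mEVs. In sham 6 of the 12, S100a8, Retnlg, Mmp8, Ly6g, Mpo and Stfa2l1, were at 0 counts, in AKI_PBS Stfa2l1 alone, and in AKI_PTPi_mEVs Ngp, Ly6g, Camp and Stfa2l1. Of the 7 neutrophil markers tested, 7 were called higher in AKI_PBS than in sham (27.8% of all genes). In AKI_PTPi_mEVs against AKI_PBS 6 were called lower (25.8% of all genes). Of the 7, however, 6 reached the filter by their AKI_PBS counts alone, which fixed their direction against AKI_PBS. Ltf, below the filter, had 29, 20 and 13 counts in sham, AKI_PBS and AKI_PTPi_mEVs, with overlapping libraries. Csf3r stayed above sham in AKI_PTPi_mEVs, with means of 0.420, 2.48 and 1.32 CPM in the same order. The part of neutrophil RNA in the Il1r2 values was not tested.

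The Il1r2 window is shown because, of the 8 genes tested, this gene had the largest fold between the injured groups (GRCm38.p6, chr1:40085843-40086142, plus strand). The capitals mark its single match, to the C/EBP-type motif, which begins 114 bases before the start site.
Il1r2: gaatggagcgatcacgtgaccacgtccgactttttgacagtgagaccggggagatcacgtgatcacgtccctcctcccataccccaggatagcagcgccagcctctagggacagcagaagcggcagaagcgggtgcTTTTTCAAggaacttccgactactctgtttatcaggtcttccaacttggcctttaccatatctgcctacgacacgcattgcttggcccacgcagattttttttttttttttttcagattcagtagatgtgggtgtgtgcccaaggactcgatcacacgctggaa
This window holds no match to the NF-kB-type or AP-1-type letters, and nothing follows from that about those factors. The counts are per gene and do not tell which start site was used.

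Il1rap encodes the accessory chain shared by the receptors for IL-1, IL-33 and IL-36. Its CPM were 11.1, 10.8 and 10.1 in sham, 8.90, 7.89 and 6.01 in AKI_PBS, and 12.5, 9.39 and 13.7 in AKI_PTPi_mEVs. The AKI_PBS libraries lay below all libraries of both other groups, the opposite order to Il1r1 and Il1r2. Groups that do not overlap, with AKI_PBS below sham, were found for 30.9% of all genes, and with AKI_PTPi_mEVs above AKI_PBS for 28.7%. Il1rap was higher in AKI_PTPi_mEVs than in AKI_PBS by 0.64 ± 0.22 on the log2 scale (edgeR adjusted p = 0.0241), while AKI_PBS against sham gave -0.48 ± 0.22, which did not pass (edgeR adjusted p = 0.0721). The first call was lost with library totals (0.53, edgeR adjusted p = 0.0696), with only the groups compared in the fit (0.65, edgeR adjusted p = 0.0512), and without AKI_PBS replicate 3 (0.50), AKI_PTPi_mEVs replicate 1 (0.62) or AKI_PTPi_mEVs replicate 3 (0.54). The second passed without AKI_PBS replicate 1 (-0.62, edgeR adjusted p = 0.0439).

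Il1rl1, the IL-33 receptor ST2, is a marker of mast cells and group 2 innate lymphoid cells. It was close to the detection limit, with 2, 3 and 3 counts in sham, 3, 2 and 0 in AKI_PBS and 2, 4 and 2 in AKI_PTPi_mEVs. The groups overlapped, and exact permutation tests gave p = 0.2, 0.4 and 0.9 for AKI_PBS against sham, AKI_PTPi_mEVs against AKI_PBS and AKI_PTPi_mEVs against sham (two-sided, adjusted 0.533, 0.686 and 1.0). The 8 mast cell and basophil markers summed to 0.265 to 0.982 CPM over all libraries, with Mcpt4 and Fcer1a at 0 counts in every group. A difference in Il1rl1 was not detectable at this depth.

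Il1rn encodes IL-1RA, the receptor antagonist. It had 1, 3 and 1 counts in sham, 27, 96 and 29 in AKI_PBS and 63, 55 and 50 in AKI_PTPi_mEVs. The injured libraries all lay far above sham, the vesicle-treated libraries lay within 5.5 to 6.0 CPM, and AKI_PBS ranged from 2.33 to 8.23 CPM around them, with replicate 2 above and replicates 1 and 3 below. Over sham, Il1rn was up by 4.66 ± 0.66 on the log2 scale in AKI_PBS (edgeR adjusted p = 7.83e-05) and by 5.05 ± 0.65 in AKI_PTPi_mEVs (edgeR adjusted p = 0.000615). Il1rn reached the filter through the injured groups alone. That fixed its direction against sham, so these p-values are a description. AKI_PTPi_mEVs against AKI_PBS gave 0.39 ± 0.41 (95% interval -0.50 to 1.28, edgeR adjusted p = 0.443). Without AKI_PBS replicate 2 that difference was 1.23 and passed (edgeR adjusted p = 0.00666), so the absence of a call rests on that library. The rise in AKI_PBS was 3.82 without the same library and 5.29 without sham replicate 2, and the difference of AKI_PTPi_mEVs from sham was 5.69 without sham replicate 2.

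RefSeq lists several start sites for Il1rn, and 2 of its windows are shown because this gene was high in both injured groups. The first lies at chr2:24336610-24336909 and the second at chr2:24345121-24345420 (GRCm38.p6, plus strand). The capitals mark an AP-1-type match 141 bases and NF-kB-type matches 54 and 4 bases before the first start site. In the second window they mark a C/EBP-type match 161 bases and an NF-kB-type match 51 bases before the start site. No 2 of these matches overlap.
Il1rn, first start: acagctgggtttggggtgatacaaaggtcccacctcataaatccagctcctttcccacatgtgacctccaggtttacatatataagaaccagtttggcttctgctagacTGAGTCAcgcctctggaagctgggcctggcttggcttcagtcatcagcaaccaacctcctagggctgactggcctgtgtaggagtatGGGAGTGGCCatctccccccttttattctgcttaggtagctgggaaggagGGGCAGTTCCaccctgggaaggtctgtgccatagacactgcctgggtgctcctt
Il1rn, second start: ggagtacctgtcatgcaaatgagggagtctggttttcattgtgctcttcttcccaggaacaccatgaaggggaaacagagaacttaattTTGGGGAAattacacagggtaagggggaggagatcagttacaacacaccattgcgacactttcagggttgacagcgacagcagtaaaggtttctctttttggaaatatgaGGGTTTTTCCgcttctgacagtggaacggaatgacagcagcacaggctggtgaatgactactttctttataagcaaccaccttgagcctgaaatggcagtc
Windows were found for 9 of the 10 genes, 14 windows in all, of which 5 hold the NF-kB-type motif, 1 the AP-1-type motif and 10 the C/EBP-type motif. Among these 14 windows, only the first of Il1rn had the AP-1-type letters. Of the other family genes, Il1a and Il1f8 have windows that hold them too. The second Il1rn window overlaps another Il1rn window that is not printed. Both hold the same NF-kB-type and C/EBP-type matches, so these matches enter the counts more than once.

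Il18bp encodes the binding protein that neutralises IL-18. It had 87, 93 and 91 counts in sham, 101, 119 and 127 in AKI_PBS and 95, 75 and 73 in AKI_PTPi_mEVs, and its CPM stayed between 8.02 and 11.2 in all 9 libraries. The vesicle-treated libraries all lay just below the AKI_PBS libraries, an order found for 29.2% of all genes. No comparison passed: AKI_PBS against sham gave a log2 fold change of 0.19 ± 0.19 (edgeR adjusted p = 0.402), AKI_PTPi_mEVs against AKI_PBS -0.27 ± 0.19 (edgeR adjusted p = 0.24) and AKI_PTPi_mEVs against sham -0.08 ± 0.19 (edgeR adjusted p = 0.818). Of its exon bases 80 (2.64%) are shared with Numa1 on the opposite strand, and the strand setting of the counting is not given in the sources used here.

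**Figure D2:**
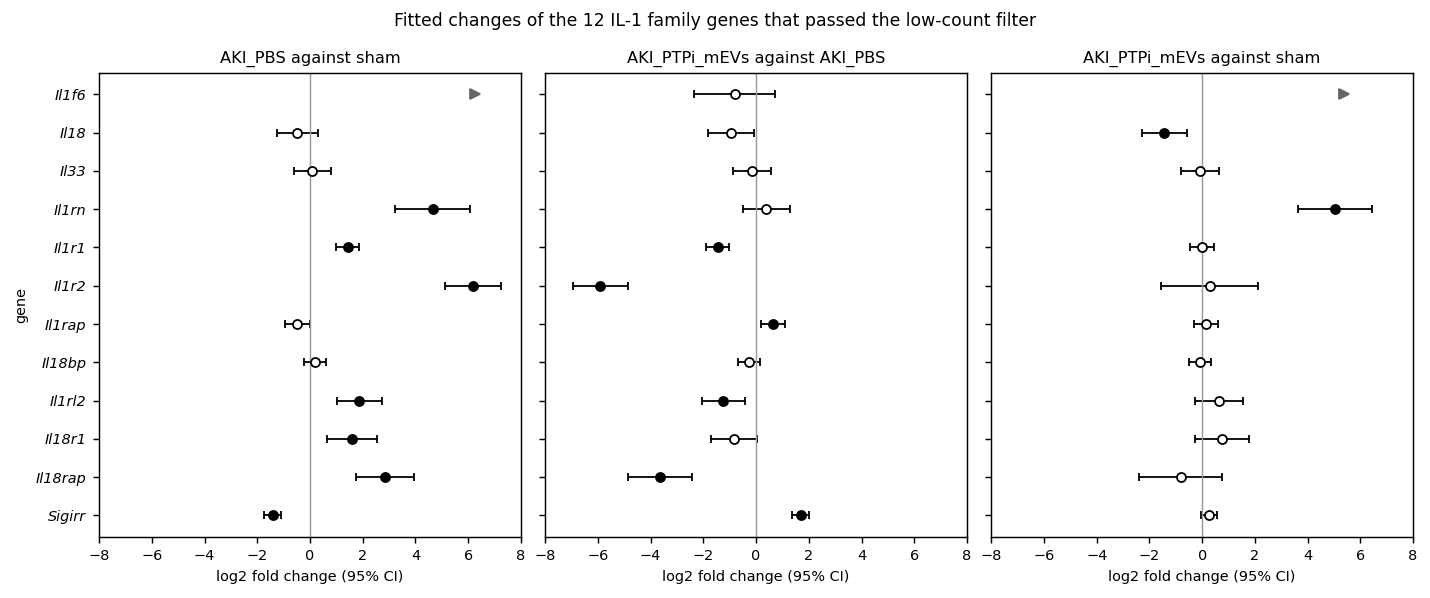
Log2 fold changes with 95% intervals for the IL-1 family genes that passed the low-count filter, one panel per comparison, on one axis from -8 to 8; filled and open marks separate called genes from the rest, and a triangle stands for Il1f6 against sham, given as the lower bound from a floor of 3 counts. Il1r1 and Il1r2 lie to the right in AKI_PBS against sham, to the left in AKI_PTPi_mEVs against AKI_PBS and near 0 in AKI_PTPi_mEVs against sham, where Il1rn stays to the right.

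Levels can be set side by side between genes only per length, here as CPM per kb of exon. In sham the order was Il18 (4.49 ± 1.35, SD), Il18bp (2.91 ± 0.127), Il33 (2.83 ± 1.30), Il1r1 (1.34 ± 0.264), Il1rap (0.937 ± 0.0461), Il1b (0.269 ± 0.116), Il1r2 (0.104 ± 0.103), Il1rl1 (0.0377 ± 0.00825), Il1rn (0.0288 ± 0.0187) and Il1f6 at 0 counts. Every sham library had more Il18 than any had Il18bp on this scale, while Il33 overlapped both. Il1r2, Il1rl1 and Il1rn overlapped each other. In AKI_PBS, Il1f6 (8.31 ± 6.0 CPM per kb, SD) and Il1r2 (7.94 ± 2.15) came first, and their values overlapped. Il1r1 (3.61 ± 0.53), Il18bp (3.32 ± 0.414), Il18 (3.19 ± 1.39) and Il33 (3.02 ± 0.442) followed within their spread of each other, then Il1b, Il1rn and Il1rap between 0.669 and 1.02, and Il1rl1 last at 0.0208. In AKI_PTPi_mEVs, Il1f6 had a mean of 4.81 ± 3.36 CPM per kb, Il18bp 2.75 ± 0.12, Il33 2.68 ± 0.886 and Il18 1.66 ± 0.447, and Il1r2 stood at 0.125 ± 0.0602.

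Ratios within a library need no scaling between libraries, but at few counts the added 0.5 makes them depend on depth. The log2 ratio of Il1rn to Il1b, antagonist to ligand, was computed from counts plus 0.5. It was -1.87, -1.28 and -1.22 in sham, 1.53, 1.44 and 0.33 in AKI_PBS and 3.53, 2.71 and 2.96 in AKI_PTPi_mEVs, so the 3 groups did not overlap. In summed counts there were 0.313 antagonist reads per Il1b read in sham, 2.27 in AKI_PBS and 8.84 in AKI_PTPi_mEVs. These are ratios of RNA counts, with Il1b at 3 to 35 counts per library, and are given with no test. The Il1r2 to Il1r1 ratio, decoy to receptor, had a mean of -5.60 ± 1.75 (SD, log2) in sham, -0.62 ± 0.35 in AKI_PBS and -4.94 ± 0.64 in AKI_PTPi_mEVs. The sham mean rests on few Il1r2 counts, 0 of them in replicate 2, and lay between -6.17 and -4.60 with any 1 sham library left out. The Il18bp to Il18 ratio was 0.96 ± 0.37 in sham, 1.70 ± 0.90 in AKI_PBS and 2.28 ± 0.47 in AKI_PTPi_mEVs, where the vesicle-treated libraries lay above sham and overlapped AKI_PBS. The Il1rl1 to Il33 ratio overlapped across groups, with means from -5.93 to -4.58.

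**Figure D3:**
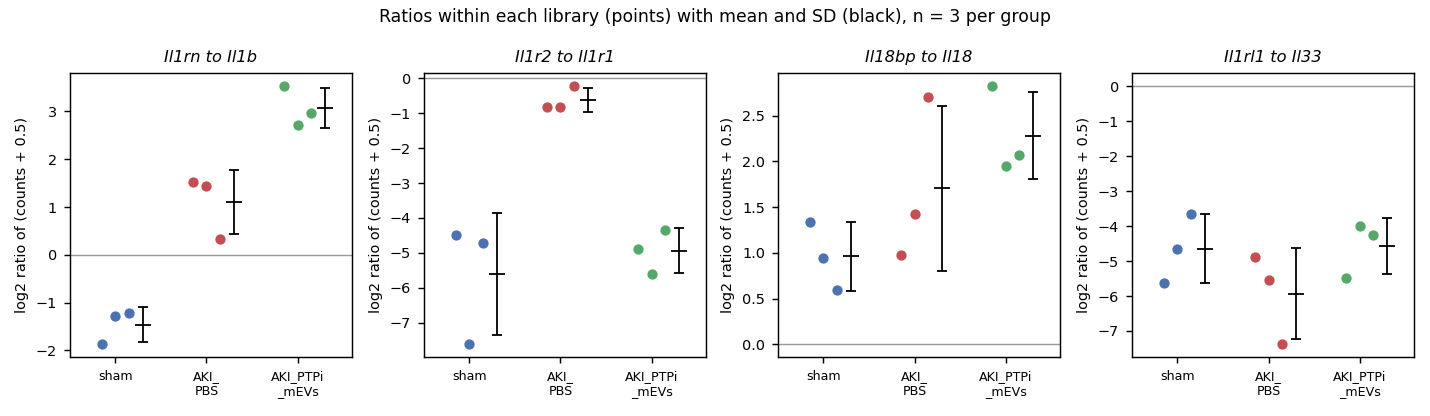
Log2 ratios of counts plus 0.5 within each library for the 4 ligand, receptor and inhibitor pairs, by group; points are libraries, and black marks are the mean and SD of 3 libraries. The ratio of Il1rn to Il1b separates the 3 groups, from a mean of -1.46 in sham to 1.10 in AKI_PBS and 3.06 in AKI_PTPi_mEVs, and the ratio of Il1r2 to Il1r1 is high in AKI_PBS alone.

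The other 11 family genes were read as background to these 10. Of the 4 that passed the filter, 3 were called higher and 1 lower in AKI_PBS against sham by edgeR's test (27.8% and 27.9% of all genes). In AKI_PTPi_mEVs against AKI_PBS 1 was called higher and 2 lower (25.4% and 25.8% of all genes). In AKI_PTPi_mEVs against sham 0 were called, a count near the 13.2% of all genes. Limma voom and DESeq2 also called 0 there, and 0 of the 4 had an unadjusted p under 0.05. Il18r1 and Il18rap passed the filter through AKI_PBS alone, which fixed their direction against AKI_PBS. Il1rl2, the receptor of IL-36α, had 10, 28 and 12 counts in sham, 47, 64 and 93 in AKI_PBS and 30, 27 and 16 in AKI_PTPi_mEVs. Like Il1r1 it was high in AKI_PBS, with a log2 fold change of 1.87 ± 0.39 against sham (edgeR adjusted p = 0.00138) and -1.24 ± 0.38 for AKI_PTPi_mEVs against AKI_PBS (edgeR adjusted p = 0.0143). The latter was lost without AKI_PBS replicate 3 (-0.93) or AKI_PTPi_mEVs replicate 3 (-1.04). Its ligand Il1f6, in contrast, overlapped between the injured groups, and whether the changes of ligand and receptor differ was not tested.

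Il18rap, the accessory chain of the IL-18 receptor, had 6, 3 and 8 counts in sham, 21, 76 and 42 in AKI_PBS and 3, 3 and 3 in AKI_PTPi_mEVs. It rose in AKI_PBS by 2.83 ± 0.51 on the log2 scale (edgeR adjusted p = 0.000451), and the vesicle-treated group lay below AKI_PBS (-3.65 ± 0.56, edgeR adjusted p = 0.000198). Il18r1, the ligand-binding chain, rose in AKI_PBS by 1.60 ± 0.43 (edgeR adjusted p = 0.00729), and AKI_PTPi_mEVs against AKI_PBS gave -0.86 ± 0.40 (edgeR adjusted p = 0.0929). Both chains reached the filter by their AKI_PBS counts alone. The T cell, B cell and innate lymphoid markers, cells that carry this receptor, summed to 71.6 to 80.2 CPM in sham, 33.0 to 65.9 CPM in AKI_PBS and 65.9 to 88.4 CPM in AKI_PTPi_mEVs, with Ncr1 at 0 counts in AKI_PBS. Gata3, which kidney epithelium also expresses, made up most of that sum, with means of 71.9, 42.0 and 71.8 CPM in the same order. Foxp3, the regulatory T cell factor, moved the other way, with means of 0.523, 1.93 and 0.901 CPM, and reached the filter through AKI_PBS alone. Cd8a was lower in AKI_PBS, with means of 2.87, 0.291 and 1.88 CPM. Below the filter, Cd3g had 15, 4 and 1 counts and Cd3e 7, 4 and 1. Of the 3 markers tested, 1 was called higher and 2 lower in AKI_PBS than in sham (27.8% and 27.9% of all genes). The part of lymphoid cells in the values of the receptor chains was not tested.

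Sigirr encodes a receptor that dampens IL-1 family signalling. It was the most abundant family gene per length, with means of 58.0 CPM per kb in sham, 21.7 in AKI_PBS and 69.8 in AKI_PTPi_mEVs. In CPM it stood at 161, 182 and 187 in sham, 67.8, 70.5 and 59.8 in AKI_PBS, and 221, 178 and 238 in AKI_PTPi_mEVs. The AKI_PBS libraries lay far below the other 6. Sigirr fell in AKI_PBS by 1.42 ± 0.14 on the log2 scale (edgeR adjusted p = 5.71e-06) and was higher in AKI_PTPi_mEVs than in AKI_PBS (1.69 ± 0.15, edgeR adjusted p = 2.83e-06), while AKI_PTPi_mEVs against sham gave 0.27 ± 0.14 (edgeR adjusted p = 0.233). The sum of the 8 proximal tubule markers moved in the same direction, from 8811 to 10916 CPM in sham to 2586 to 4220 CPM in AKI_PBS and 6379 to 10407 CPM in AKI_PTPi_mEVs. Of these markers, Slc5a2 overlapped across the groups. The sum of the 8 urothelium markers also moved this way, at 76.8 to 103, 11.8 to 32.9 and 52.2 to 212 CPM in the same order. Among them Krt5 was higher in AKI_PBS than in sham. The part of these cells in the Sigirr values was not tested.

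The other 7 family genes had few counts. Il1f5, which encodes the IL-36 receptor antagonist, had 22, 9 and 14 counts in sham, 1, 2 and 3 in AKI_PBS and 4, 5 and 4 in AKI_PTPi_mEVs. No 2 groups overlapped, and each exact permutation test gave the smallest possible p of 0.1 (two-sided, adjusted 0.343). It ran opposite to its agonist Il1f6, which was at 0 in sham. Il1a, the alarmin IL-1α, had 8 counts in sham, 2 in AKI_PBS and 10 in AKI_PTPi_mEVs over 3 libraries each, and its pooled ratio of AKI_PTPi_mEVs to AKI_PBS was 5.92 (95% exact interval 1.26 to 55.6, counting error only). With 3 libraries against 3, an exact permutation test of Il1a cannot give a p under 0.1. An antisense transcript with 259 counts in all shares 222 of its exon bases, and the strand setting of the counting is not given. Il1f9 (IL-36γ) had 0, 0 and 0 counts in sham, 1, 10 and 3 in AKI_PBS and 2, 5 and 0 in AKI_PTPi_mEVs, which overlapped both other groups. AKI_PBS was at least 4.16-fold higher with sham set to a floor of 3 counts in all (exact permutation p = 0.1, two-sided, adjusted 0.343). Il1f8, Il1f10, Il1rapl1 and Il1rapl2 had at most 2 counts in any group.

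**Figure D4:**
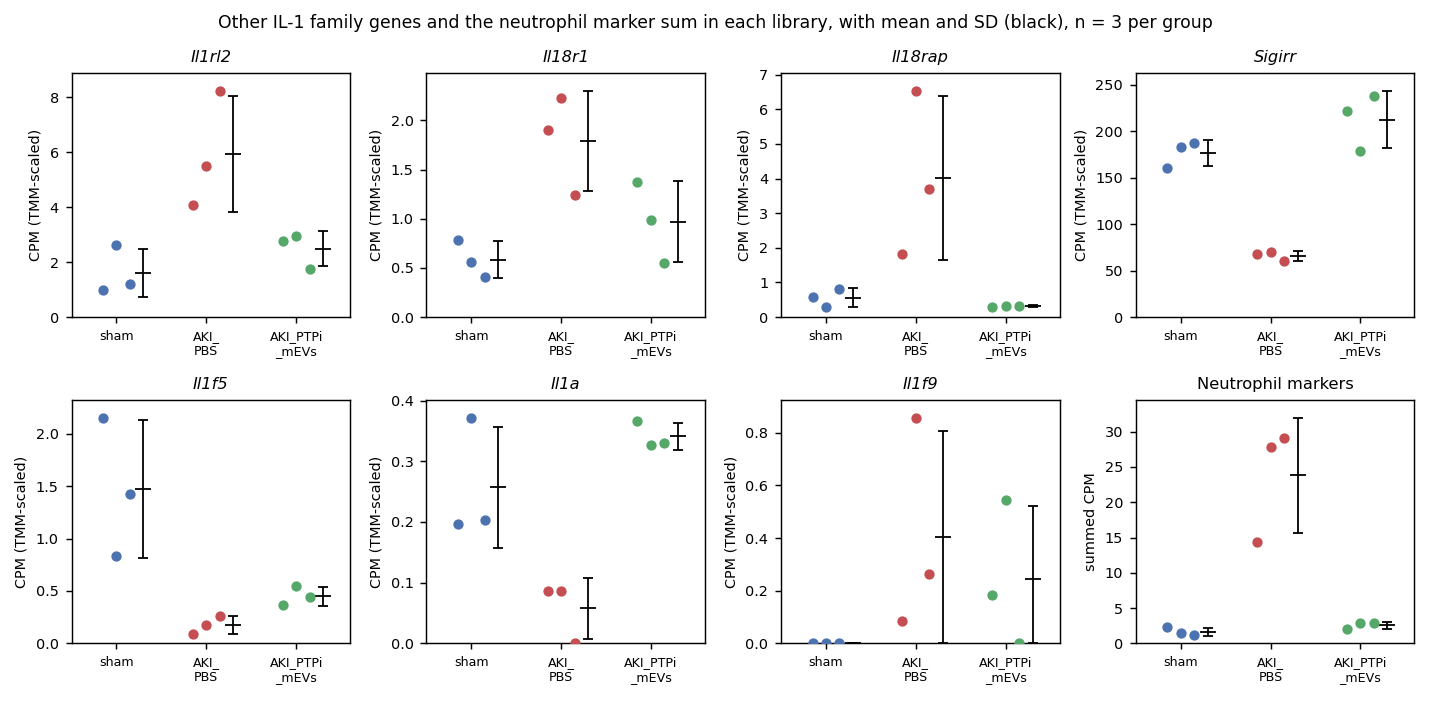
Values of other IL-1 family genes and the summed level of the 12 neutrophil markers in each library, in CPM on linear axes that start at 0, by group; points are libraries, and black marks are the mean and SD of 3 libraries. Il1rl2, Il18rap and the neutrophil sum are highest in AKI_PBS, whereas Sigirr and Il1f5 are lowest there.

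Several of the family genes lie in clusters on chromosomes 1 and 2, while Il18, Il18bp, Il33 and Il1rap lie on chromosomes 9, 7, 19 and 16. By the RefSeq windows (GRCm38.p6, plus strand of chromosome 1), Il1r2 begins at 40085843, Il1r1 at 40224830, Il1rl2 at 40324339, Il1rl1 at 40429320, Il18r1 at 40465302 and Il18rap at 40515112, where each number is the start of the gene's first window. Of these 6 neighbours, Il1r2, Il1r1, Il1rl2, Il18r1 and Il18rap rose in AKI_PBS against sham, and Il1rl1 had 5 counts in AKI_PBS and 8 in sham. Over all genes 27.8% were called higher in that comparison, and Il1r2, Il18r1 and Il18rap passed the filter through AKI_PBS alone, which fixed their direction. The ligand genes Il1b, Il1a, Il1f5, Il1f8, Il1f9 and Il1f10 and the antagonist Il1rn have their windows on chromosome 2, and they did not share a direction, with Il1rn higher and Il1f5 lower in AKI_PBS than in sham.

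For genes of the family that passed the filter, the genes outside the family with the most alike pattern were found among 13399 genes by the root mean square (RMS) difference of centred log2 CPM over the 9 libraries. Il1f6 was closest to Fga, a fibrinogen chain (RMS difference 0.615), with mean levels of 17.8 CPM in sham, 709 CPM in AKI_PBS and 331 CPM in AKI_PTPi_mEVs, and to the metalloproteinase Mmp7 (0.673), which also had 0 counts in sham. Il1r2 was closest to Pdk4, a mitochondrial kinase that limits glucose oxidation (0.610), at 17.1, 757 and 13.9 CPM in the same order. Il1r1 was closest to the zinc finger genes Zfp628 (0.116) and Zfp777 (0.125), and Il1rap to Prcp, a carboxypeptidase (0.0944), and Il10rb, an IL-10 receptor chain (0.103). The nearest gene to Il18 was Rergl (0.220), to Il33 Marcks (0.172) and to Il18bp Ppp1r13b (0.0589). A small difference is easier to reach for a gene that varies little, such as Il18bp or Il1rap, so these values are not comparable between genes, and the likeness is a description.

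The machinery that processes IL-1 and IL-18 was read from a list of 20 genes, of which 14 passed the filter. In AKI_PBS against sham 4 were higher and 3 lower (median log2 fold change -0.11, against 0.03 over all genes), and in AKI_PTPi_mEVs against AKI_PBS 3 were higher and 3 lower (median 0.34, against -0.03). The called shares, 7 and 6 of 14, lay near the 55.7% and 51.1% of all genes. Nlrp6, an inflammasome sensor of epithelia, fell in AKI_PBS (log2 fold change -3.76 ± 0.21, edgeR adjusted p = 1.73e-07) from 187 to 219 CPM in sham to 10.6 to 17.4 CPM, and stood at 112 to 162 CPM in AKI_PTPi_mEVs (3.21 ± 0.20 against AKI_PBS, edgeR adjusted p = 4.94e-07). Nek7, a partner of NLRP3, rose by 0.95 ± 0.15 and was lower by -0.90 ± 0.15 between the injured groups. Ctss, a lysosomal protease, rose by 1.15 ± 0.27 and gave -1.55 ± 0.28 between the injured groups. Casp1, which cuts both cytokines, did not pass, with 45, 46 and 31 summed counts in sham, AKI_PBS and AKI_PTPi_mEVs. Nlrp3 lay below the filter, with 10, 16 and 15 counts.

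In AKI_PTPi_mEVs against sham 2 of the 14 tested genes of this list were called, near the 13.2% of all genes. The count was 0 without sham replicate 2 or AKI_PTPi_mEVs replicate 2, 1 without sham replicate 3 and 4 without AKI_PBS replicate 3. P2rx4, an ATP-gated channel, was higher (0.70 ± 0.15, edgeR adjusted p = 0.00984) and Nlrc4, a sensor that recruits caspase-1, was lower (-1.21 ± 0.31, edgeR adjusted p = 0.0209). The call of Nlrc4 was also lost without AKI_PTPi_mEVs replicate 3. Nlrc4 had fallen in AKI_PBS against sham as well (-1.89 ± 0.32, edgeR adjusted p = 0.00027). P2rx7, the channel whose opening triggers IL-1β release, was lower in AKI_PTPi_mEVs than in AKI_PBS (-2.02 ± 0.34, edgeR adjusted p = 0.000361).

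All 23 genes of the receptor signalling list, from the adaptor Myd88 to NF-kB, were tested. In AKI_PBS against sham 16 were higher and 2 lower (median log2 fold change 0.72), beside 27.8% and 27.9% of all genes. In AKI_PTPi_mEVs against AKI_PBS 2 were higher and 13 lower (median -0.66), beside 25.4% and 25.8%. Rela, the p65 subunit of NF-kB, rose from 41.2 to 43.8 CPM in sham to 99.1 to 150 CPM in AKI_PBS (1.62 ± 0.16, edgeR adjusted p = 4.69e-06) and was lower at 46.1 to 52.0 CPM in AKI_PTPi_mEVs (-1.43 ± 0.16, edgeR adjusted p = 1.76e-05). Irak3, a brake on this pathway in myeloid cells, rose by 2.38 ± 0.30, and the adaptors Tab2 and Traf6 rose by 1.38 ± 0.16 and 1.26 ± 0.16. Tab2 (-1.22 ± 0.16), Map3k8 (-2.51 ± 0.32) and the NF-kB inhibitor gene Nfkbia (-1.30 ± 0.17) were lower in AKI_PTPi_mEVs than in AKI_PBS. Against sham, AKI_PTPi_mEVs had Ikbkg, Myd88 and Ikbkb higher (0.61 ± 0.13, 0.67 ± 0.17 and 0.44 ± 0.12) and Peli2 lower (-0.51 ± 0.14), 4 of 23 called beside 13.2% of all genes. The number of genes of the list called there was 1 without sham replicate 1, sham replicate 2 or AKI_PTPi_mEVs replicate 1, 2 without sham replicate 3 or with no low-count filter, and 0 without AKI_PTPi_mEVs replicate 2.

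Genes that IL-1 is known to induce in other cells were read from a list of 26, of which 19 passed the filter, 5 of them only through AKI_PBS. Cxcl2, Lif, Mmp3 and Ccl20 passed it only through libraries of the injured groups. For all of these genes the direction against sham was fixed, and for the 5 also that between the injured groups, so the counts are a description. All 19 were higher in AKI_PBS than in sham (median log2 fold change 4.11), beside 27.8% of all genes. In AKI_PTPi_mEVs against AKI_PBS 12 were called, all lower (25.8% of all genes), and in AKI_PTPi_mEVs against sham 8 were called, all higher (7.43% of all genes). The last count was 5 without any 1 of the sham libraries or AKI_PTPi_mEVs replicate 2. Since other cytokines induce the same genes, the list does not single out IL-1. Lcn2, the iron-trapping lipocalin, stood at 1.83 to 2.45 CPM in sham, 257 to 498 CPM in AKI_PBS and 58.0 to 131 CPM in AKI_PTPi_mEVs, with log2 fold changes of 7.60 ± 0.42 and 5.36 ± 0.40 for the injured groups against sham. Cxcl2, a neutrophil-attracting chemokine, rose by 6.41 ± 0.63 and was lower by -3.50 ± 0.47 between the injured groups. The cyclooxygenase gene Ptgs2 (-2.90 ± 0.38), the prostaglandin synthase gene Ptges (-1.25 ± 0.16) and the acute-phase gene Saa3 (-3.95 ± 0.47) were lower there too. The cytokine gene Lif (4.33 ± 0.68) and the adhesion gene Icam1 (1.5 ± 0.20) were higher in AKI_PTPi_mEVs than in sham, Lif by 5.61 without sham replicate 2.

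Macrophage and monocyte markers were also read beside these values. The 12 markers summed to 108 to 148 CPM in sham, 321 to 441 CPM in AKI_PBS and 127 to 155 CPM in AKI_PTPi_mEVs, with none at 0 counts. Cd14, which injured tubules also express, made up most of the AKI_PBS sum, at 12.1 ± 4.34 CPM (SD) in sham, 281 ± 60.5 CPM in AKI_PBS and 56.7 ± 22.1 CPM in AKI_PTPi_mEVs. Adgre1, which encodes F4/80, moved the other way, with means of 1.77, 0.319 and 1.26 CPM. The part of these cells in the values of Il1b, Il1rn and Il1r1 was not tested.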

How the data were processed

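Whole-kidney RNA of 9 wild-type mouse libraries in 3 groups was analysed. The deposited table holds whole-number read counts per gene that the authors made with STAR and HTSeq (no versions stated), as the submitters' processing notes say. The labels' protocols describe phenol-chloroform extraction and a Tn5-based library kit fed with 100 ng of total RNA. The notes name GRCh38.p14, a human build, while the identifiers are mouse Ensembl identifiers, so the only coordinates given are those of the RefSeq windows. Symbols were found for 52073 of 56923 identifiers. Replicates were not duplicates (lowest chi-square per degree of freedom 6.79).

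Counts were analysed with edgeR 4.0.16 in R 4.3.3: filterByExpr by group (17036 genes left), TMM scaling and a robust quasi-likelihood fit of all 9 libraries with 6 residual degrees of freedom, with Benjamini-Hochberg adjustment over all genes tested. The fit was tested on simulated counts. Family genes below the filter were compared by two-sided exact permutation tests of CPM (scipy 1.17.1), adjusted over their 24 tests. A fold against a group at 0 counts used a floor of 3 counts over the group. Intervals of pooled ratios cover counting error only, and reads carried no molecular identifiers.

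CPM per kb used exon lengths of GENCODE M21. Start-site windows come from RefSeq (GRCm38.p6) and hold 250 bases before and 50 after each start. Tried as alternatives were DESeq2 1.42.0, limma 3.58.1 (voom), scaling by library totals or by relative log expression, no low-count filter, a stricter one (at least 30 counts in at least 3 libraries), only the groups compared, a replicate block, a pseudocount of 1 in place of 0.5 for ratios, and each library left out. The members and lists were chosen with earlier results of these data known. Named are all family genes, up to 4 called genes with the smallest adjusted p per list and comparison, and up to 2 most alike genes per member (not reported here for Il1rn), while Casp1, Nlrp3, Cd14 and Adgre1 were named after their values were seen. Figures were drawn with matplotlib 3.10.9 in Python 3.11.15.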

Additional observations from a re-analysis of the deposited data

How the results depend on the processing

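Over the 8 tested genes, 380 of 406 results under alternative settings kept their direction and their side of the threshold; 11 lost a call, 5 gained 1 and 10 changed sign. With no low-count filter, members called in AKI_PTPi_mEVs against AKI_PBS were 5 in place of 3, since Il1b was then tested and Il18 passed, and other family genes in AKI_PTPi_mEVs against sham 1 in place of 0. With the stricter filter, other family genes in AKI_PBS against sham were 2 in place of 4, since fewer were tested. In AKI_PTPi_mEVs against sham, processing genes called were 4 with library totals, the stricter filter or only the groups compared and 5 with no filter (main value 2), and signalling genes 2 with no filter (main value 4); the cause was not tested. Leaving out each library gave, in that comparison, 1 to 3 members, 0 to 1 other family genes, 0 to 4 processing, 0 to 4 signalling and 5 to 11 response genes, and 878 to 3395 of all genes (2252 with all libraries). The sign changed only for differences that were not called: Il1r1 (-0.17 to 0.095), Il1r2 (-0.30 to 1.21), Il33 (-0.36 to 0.30), Il1rl1 (-0.37 to 0.34) and Il1f8 (-0.60 to 0.57) in AKI_PTPi_mEVs against sham, Il33 in AKI_PBS against sham (-0.21 to 0.45), and Il33 (-0.41 to 0.069) and Il1f9 (-2.14 to 0.47) in AKI_PTPi_mEVs against AKI_PBS. Il1f8 against sham was 0.066 with no filter. Library totals moved the median log2 fold change of all genes by -0.11 in AKI_PTPi_mEVs against AKI_PBS. Same-numbered replicates did not deviate together over all genes tested (r -0.19 to 0.11). That gave no sign of pairing by number but cannot exclude it. With the replicate block 4, 3 and 3 members were called in the 3 comparisons, as without it. Depth limits Il1b, Il1rl1 and the other genes under the filter.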
